A study of Mus musculus with 12 samples.

Results

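Myelin is the membrane that oligodendrocytes wrap around axons, and 10 of the 21937 genes listed in its age series are described here: Clec7a, Cst7, Itgax, Lpl, Spp1, Axl, Trem2, Tyrobp, Lyz1 and Lyz2. They are grouped here as genes of activated microglia and were picked by symbol, with their rise between the libraries of 6 and 24 months already known. Which cells carried each gene in this material was not tested. Levels at 6 and 24 months, and every difference that uses them, are therefore given for these genes as a description without a test, whereas the step from P18 to P75 was tested. That step compares other libraries, but the libraries of all 4 ages set its estimate of the spread and the filter on low values, so it is also given from the libraries of P18 and P75 alone. All 10 genes were found in the table. The study purified a light-weight membrane fraction from brains of wild-type male c57Bl6/N mice by sucrose density centrifugation and sequenced its RNA. 3 libraries each were made at P18 (postnatal day 18), P75 (postnatal day 75), 6 months (6mo) and 24 months (24mo), 12 in all. Individual brains are named as the source only for 6mo, so at the other ages the spread between libraries, and the p-values that rest on it, may be technical. No treatment or mutant allele is named for any group, and age is the only difference given. Each age had its own libraries, so age cannot be told apart from differences in preparation, RNA quality or batch between the ages. The values are normalized read counts, that is reads on a gene divided by a size factor of the library, and are not corrected for gene length.

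Microglia are the resident macrophages of the brain and clear dying cells and myelin debris. In aged white matter, demyelination and amyloid disease they switch on a recurring set of genes, often called disease-associated, for lipid uptake, lysosomal breakdown and phagocytosis. The receptor Trem2, which binds lipids and apolipoproteins, signals through the adaptor Tyrobp and is required for much of this program.

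Each library held 20299052 to 27214385 reads on genes. The fraction was rich in oligodendrocyte RNA: 8 oligodendrocyte and myelin markers summed to 193050 to 621514 normalized read counts per library, against 5070 to 13858 for 14 homeostatic microglia markers such as P2ry12 and Tmem119. Astrocyte markers, at 95253 to 115259, and neuron markers, at 135537 to 201505, were also present, so the fraction holds RNA of several cell types. Mbp took 9.47% to 20.8% of the reads at P18 and 4.76% to 8.48% later. Because these are bulk samples, fewer cells of a type and less RNA per cell cannot be told apart.

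Lyz1 and Lyz2 encode lysozymes, enzymes that cleave bacterial cell walls, and are near-identical copies that could have lost or exchanged reads when reads were assigned to genes. Their coding sequences, from the GENCODE vM1 annotation of NCBIM37 (mm9), are 447 bases each and differ at 22 bases (95.1% identical), with a longest identical stretch of 118 bases. The first 180 coding bases are shown because they hold 15 of the differing bases, which are in capitals.
Lyz1: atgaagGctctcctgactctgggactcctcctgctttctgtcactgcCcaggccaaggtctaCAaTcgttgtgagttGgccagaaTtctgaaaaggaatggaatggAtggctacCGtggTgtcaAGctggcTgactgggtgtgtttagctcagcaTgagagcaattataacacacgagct
Lyz2: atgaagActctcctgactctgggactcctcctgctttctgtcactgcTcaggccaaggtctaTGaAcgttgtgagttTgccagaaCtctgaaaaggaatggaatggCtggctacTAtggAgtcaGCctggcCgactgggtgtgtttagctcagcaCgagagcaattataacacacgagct
Of all 50-base windows of the transcripts, 195 of 1215 (16.0%) in Lyz1 and 195 of 1264 (15.4%) in Lyz2 also occur in the other transcript. A read of that length inside such a window fits both genes equally well. The 2 genes lie next to each other on the minus strand of chromosome 10 in NCBIM37, Lyz1 at chr10:116724852-116729924 and Lyz2 at chr10:116714390-116719377, each with 4 merged exons.

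Upstream of their starts the copies also resemble each other. The 100 bases nearest the annotated start, from RefSeq on GRCm38.p6, are shown because both genes rose with age in these libraries. They differ at 8 bases, in capitals, whereas the 150 bases farther out differ at 90 when compared position by position without gaps.
Lyz1: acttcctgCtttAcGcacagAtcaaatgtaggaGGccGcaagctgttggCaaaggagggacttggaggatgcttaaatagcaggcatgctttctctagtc
Lyz2: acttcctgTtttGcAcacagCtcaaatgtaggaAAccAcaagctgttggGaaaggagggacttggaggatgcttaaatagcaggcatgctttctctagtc
Lyz1 was read at chr10:117292869-117292968 and Lyz2 at chr10:117282273-117282372, both on the minus strand.

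RefSeq promoters of GRCm38.p6 were matched for 8 of the 10 genes (10 entries, since Spp1 and Clec7a have more than 1 start). The 250 bases before each start were searched on both strands for exact matches of the motifs GAGGAA and CACGTG, which do not overlap in their letters. GAGGAA is a sequence bound by the myeloid factor PU.1, and CACGTG is the E-box read by lysosomal regulators such as TFEB. GAGGAA was present in 4 of the 8 genes (Clec7a, Trem2, Spp1 and Axl), and in 23.3% of all 32851 promoters of that length. CACGTG was present in 0 of the 8 genes, and in 6.02% of all promoters. A gene was counted if any of its starts had a match, whereas the shares are of single promoter entries, so the units differ. Spp1 also has a start without GAGGAA. The promoters of Clec7a and Trem2, which hold GAGGAA or its reverse complement (capitals), are set beside that of Cst7, which has no exact match. The values of Cst7 followed those of Clec7a most closely across the 12 libraries.
Clec7a: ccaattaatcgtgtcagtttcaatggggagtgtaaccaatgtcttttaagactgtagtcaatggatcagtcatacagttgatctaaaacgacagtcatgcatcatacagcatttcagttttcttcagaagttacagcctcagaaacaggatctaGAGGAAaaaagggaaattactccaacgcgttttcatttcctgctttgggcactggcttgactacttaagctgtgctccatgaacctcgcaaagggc
Trem2: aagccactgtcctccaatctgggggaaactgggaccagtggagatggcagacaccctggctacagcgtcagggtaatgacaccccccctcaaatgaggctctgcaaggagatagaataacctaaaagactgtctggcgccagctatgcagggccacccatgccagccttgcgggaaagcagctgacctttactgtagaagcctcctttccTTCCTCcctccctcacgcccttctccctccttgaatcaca
Cst7: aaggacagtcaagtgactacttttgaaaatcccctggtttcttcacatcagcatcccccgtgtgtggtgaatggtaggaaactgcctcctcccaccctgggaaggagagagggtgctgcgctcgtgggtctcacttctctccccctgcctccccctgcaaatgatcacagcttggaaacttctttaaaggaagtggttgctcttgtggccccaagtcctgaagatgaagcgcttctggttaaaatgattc
The stretch of Clec7a is chr6:129472780-129473029 on the minus strand with the motif beginning 96 bases before the start, that of Trem2 is chr17:48346151-48346400 on the plus strand with the motif 40 bases before it, and that of Cst7 is chr2:150570165-150570414 on the plus strand. A match describes letters and does not show that a factor binds. Nor does the lack of an exact match show that PU.1 has no site there, since variants of the motif were not searched.

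Among the genes described here, the largest differences between 6 and 24 months belonged to Clec7a, Cst7 and Itgax, 3 genes that were low at every earlier age. From 6 to 24 months the mean of Cst7 was 11.6 times higher, that of Clec7a 7.86 times and that of Itgax 6.38 times, and these changes on the log2(normalized read count + 1) scale ranked 3, 4 and 8 among the 14634 genes whose mean reached 10. Lyz1 (5.23 times, rank 9) and Lyz2 (3.52 times, rank 23) followed. As the genes were chosen with this rise known, nothing is read from the ranks. Cst7 and Itgax also entered the ranking only through the 24-month libraries. Tyrobp (2.36 times) and Trem2 (2.05 times) were more than doubled, Lpl (1.64 times) and Spp1 (1.62 times) were less so, and Axl (0.982 times) showed no difference beyond the spread of its libraries.

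**Figure D1:**
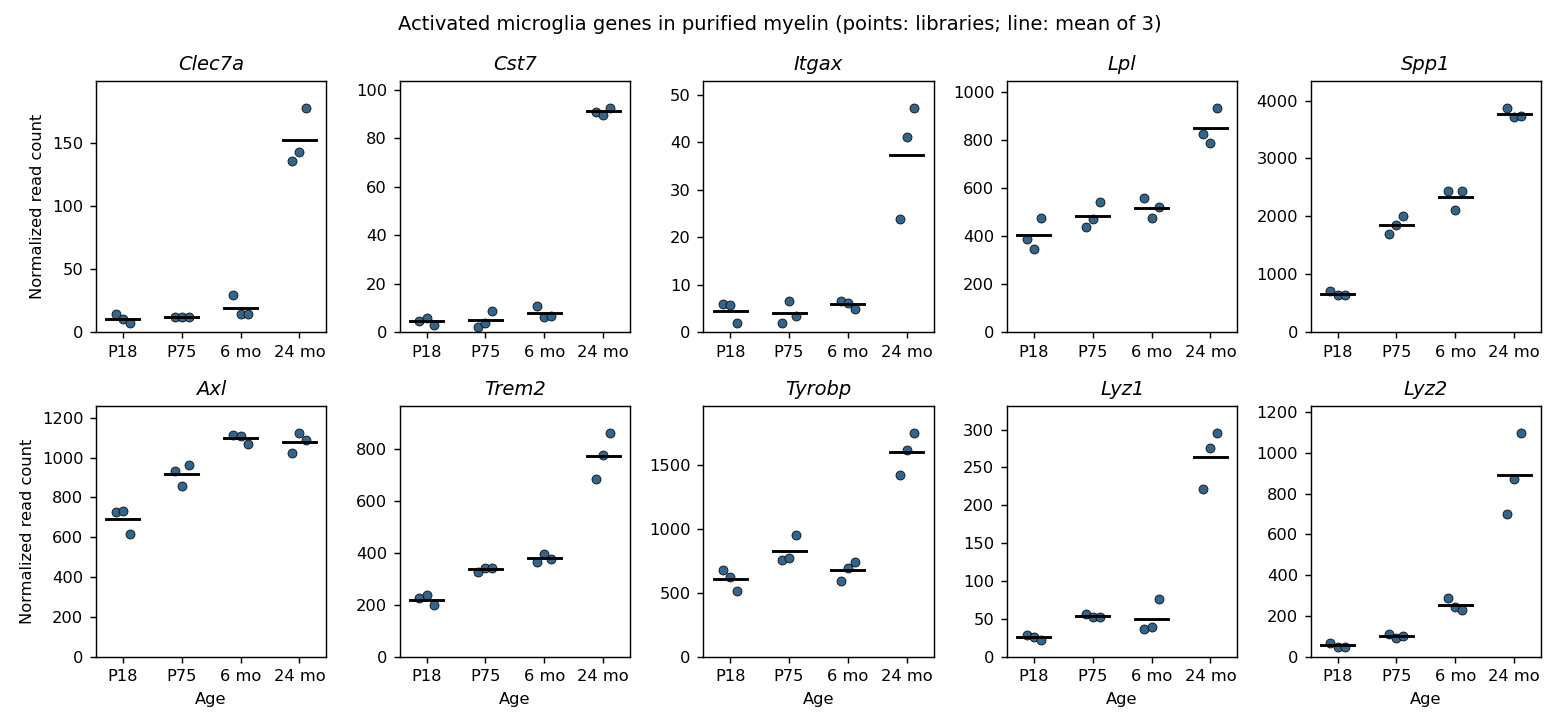
Normalized read count (y axis, from 0, a separate scale for each gene) of the 10 genes at each age (x axis), with 1 point per library and a line at the mean of 3. Clec7a, Cst7 and Itgax stay below 30 in all libraries up to 6mo and stand at 23.8 or more at 24mo, Spp1 climbs at every step, and Axl is no higher at 24mo than at 6mo.

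Trem2, the lipid-sensing receptor, lies at chr17:48485726-48493472 on the plus strand of NCBIM37, the build of all gene positions given here, with 5 merged exons. No annotated gene overlaps any of the 10 genes. The libraries showed 227, 237 and 198 normalized read counts at P18, 329, 343 and 342 at P75, 364, 397 and 378 at 6mo, and 686, 778 and 865 at 24mo. All 3 libraries of each age lay above all 3 of the age before. Means were 221 ± 20.4, 338 ± 7.9, 379 ± 16.5 and 776 ± 89.5 (SD, n = 3). Between P18 and P75 Trem2 rose by 0.62 ± 0.10 (SE) on the log2 scale (adjusted p = 0.00022, limma with Benjamini-Hochberg adjustment). The difference from 6 to 24 months was 1.03 ± 0.10 (SE) on that scale.

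Tyrobp, also called DAP12, is the signaling adaptor of Trem2 and lies at chr7:31198807-31202596 on the plus strand with 5 merged exons that sum to 564 bases, the shortest of the 10 genes. In the P18 libraries it had 681, 623 and 518 normalized read counts, at P75 761, 771 and 956, at 6mo 593, 698 and 740, and at 24mo 1424, 1618 and 1754. Every 24-month library exceeded every other library, and the 6-month libraries all lay below those of P75. Tyrobp rose by 0.45 ± 0.12 (SE) from P18 to P75 (adjusted p = 0.0079, limma with Benjamini-Hochberg adjustment). Mean levels were 607 ± 82.4, 829 ± 110, 677 ± 75.4 and 1598 ± 166 (SD, n = 3). On the log2 scale the later differences were -0.29 from P75 to 6mo and 1.24 from 6 to 24 months. The first of these turned to 0.37 and the second became 0.83 once the trend with gene length, described further on, was removed.

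Clec7a encodes dectin-1, a receptor for fungal beta-glucans that is used as a marker of activated microglia, and lies at chr6:129411611-129422790 on the minus strand with 6 merged exons. Normalized read counts were 14.3, 10.2 and 7.03 at P18, 12, 12.1 and 12.2 at P75, and 29.2, 14.2 and 14.6 at 6mo. The 24-month libraries had 136, 143 and 178, far above all others. These values rest on 28 reads in all at P18, 36 at P75, 67 at 6mo and 461 at 24mo. The ratio of pooled reads between 24 and 6 months was 7.73, with a 95% interval of 5.97 to 10.1 that covers counting error only. From P18 to P75 the difference was 0.24 ± 0.29 (SE) and did not pass the test (adjusted p = 0.55, limma with Benjamini-Hochberg adjustment). Within its counting interval, 0.697 to 2.0 times, a doubling could not be told from no change at this depth.

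Itgax encodes integrin alpha X (CD11c), which pairs with the beta 2 chain Itgb2 to form a complement receptor, and lies at chr7:135273061-135294171 on the plus strand with 30 merged exons. It was the lowest of the 10 genes, with a range of 2.01 to 5.94 normalized read counts in the P18 libraries, 2.0 to 6.49 in those of P75 and 4.87 to 6.5 in those of 6mo. At 24mo the libraries had 23.8, 41.1 and 47.2, so that even replicate 1, the lowest of its age, stood well above the 9 younger libraries. Pooled reads numbered 20 at 6mo and 113 at 24mo, a ratio of 6.34 (95% counting interval 3.92 to 10.8). The libraries of P18 and P75 overlapped. The gene was not counted as tested in that step, since it reached the filter on low values only through the 24-month libraries.

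Axl is a receptor tyrosine kinase that, through the bridging proteins Gas6 and Pros1, recognizes phosphatidylserine on dying cells. It lies at chr7:26542292-26573724 on the minus strand with 19 merged exons. The libraries had 726, 733 and 618 normalized read counts at P18, 934, 859 and 964 at P75, 1115, 1110 and 1071 at 6mo, and 1024, 1126 and 1090 at 24mo. The first 3 ages did not overlap, whereas the libraries of 6 and 24 months did, with a difference of -0.03 ± 0.09 (SE) on the log2 scale. Axl rose by 0.41 ± 0.09 (SE) between P18 and P75 (adjusted p = 0.0013, limma with Benjamini-Hochberg adjustment). Its means were 692 ± 64.7, 919 ± 54.3, 1099 ± 24.1 and 1080 ± 51.3 (SD, n = 3). The data thus go against counting Axl among genes that are higher at 24mo than at 6mo.

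Of the secreted proteins, Spp1 encodes osteopontin, a matrix protein and cytokine that binds integrins and Cd44, and lies at chr5:104864137-104870069 on the plus strand with 8 merged exons. It had 709, 643 and 639 normalized read counts at P18, 1695, 1857 and 2008 at P75, 2445, 2108 and 2432 at 6mo, and 3872, 3717 and 3732 at 24mo. No 2 ages overlapped. Spp1 rose by 1.48 ± 0.09 (SE) on the log2 scale from P18 to P75 (adjusted p = 2.9e-08, limma with Benjamini-Hochberg adjustment), from a mean of 664 ± 39.6 to 1853 ± 157 (SD, n = 3), a rank of 104 among the genes tested. The later differences were 0.33 from P75 to 6mo and 0.70 from 6 to 24 months. Its largest step was therefore the early one, and the description as a late gene fits Spp1 only in part.

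Lpl encodes lipoprotein lipase, which releases fatty acids from lipoprotein triglycerides, and lies at chr8:71404390-71431347 on the plus strand with 13 merged exons. Counts after normalization were 386, 348 and 475 at P18, 437, 470 and 544 at P75, 557, 476 and 522 at 6mo, and 827, 788 and 934 at 24mo. Only the 24-month libraries stood clear of the rest. The early difference of 0.27 ± 0.12 (SE) passed the threshold (adjusted p = 0.085, limma with Benjamini-Hochberg adjustment) although the libraries overlapped. It no longer passed in the libraries of P18 and P75 alone (adjusted p = 0.15, limma with Benjamini-Hochberg adjustment), with edgeR or with DESeq2, nor without replicate 1 or 2 of P18, replicate 2 or 3 of P75 or replicate 3 of 6mo, where it ranged from 0.17 to 0.29.

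Cst7 encodes cystatin F, an inhibitor of cysteine cathepsins in immune cells, and lies at chr2:150396151-150404680 on the plus strand with 4 merged exons. It ranged from 3.01 to 5.65 normalized read counts in the P18 libraries, from 2.0 to 8.84 in those of P75 and from 6.21 to 10.6 in those of 6mo, from 12, 14 and 27 pooled reads. The 24-month libraries had 91.1, 89.7 and 92.6, the closest agreement of the 10 genes at that age. Pooled reads gave a ratio of 11.4 between 24 and 6 months (95% counting interval 7.69 to 17.7). The libraries of P18 and P75 overlapped, and as for Itgax that step was not counted as tested.

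Of the lysozymes, Lyz1 had 28.5, 26.0 and 22.1 normalized read counts at P18, 57.1, 52.9 and 52.0 at P75, 36.6, 39.1 and 75.9 at 6mo, and 221, 275 and 296 at 24mo. It rose by 1.06 ± 0.23 (SE) from P18 to P75 (adjusted p = 0.0016, limma with Benjamini-Hochberg adjustment). The 6-month values straddled those of P75, with replicate 3 about double the other two. Lyz2 had 68.9, 48.6 and 49.2 at P18, 110.0, 92.7 and 99.5 at P75, 286, 243 and 229 at 6mo, and 699, 870.0 and 1099 at 24mo. Unlike Lyz1 it showed 4 ages without overlap, and it rose by 0.86 ± 0.17 (SE) from P18 to P75 (adjusted p = 0.00071, limma with Benjamini-Hochberg adjustment). From P75 to 6mo the difference was 1.31 for Lyz2 and -0.17 for Lyz1 on the log2 scale. The sum of both genes, which does not depend on how shared reads were split between them but lacks any that were dropped, was 81.1 ± 14.2, 155 ± 11.3, 303 ± 20.2 and 1153 ± 237 (SD, n = 3) at the 4 ages. Lyz1 made up 31.7% ± 2.86, 34.9% ± 1.21, 16.7% ± 7.23 and 23.1% ± 1.59 of it.

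All 10 genes passed the filter on low values, a mean of 10 over all libraries, but Cst7 and Itgax did so only through the 24-month libraries, since without them their means were 5.73 and 4.78. Of the other 8 genes, 7 rose from P18 to P75 and 0 fell at a false discovery rate of 0.1, against a background of 25.9% of the 14634 genes tested that rose in that comparison. These were Spp1, Lyz1, Lyz2, Trem2, Tyrobp, Axl and Lpl. In the 6 libraries of these ages alone, with the filter on their own mean, 6 of the 8 rose and Lpl and Clec7a did not pass the test, where 22.8% of 14522 genes rose. No member was lower by limma at an unadjusted p under 0.05, by edgeR or by DESeq2 either. Spp1 and Lyz1 passed a fold of 2 as well, as did 2.82% of all genes. The libraries did not overlap for 6 of the genes, all higher at P75, where 25.1% of all genes were higher without overlap. The median log2 change of the 10 genes was 0.43, and that of all genes tested 0.02. Scaled to the same total, which moved the median of all genes to 0.139 and the calls from 3783 higher and 3354 lower to 4739 and 1827, again 7 genes passed, all higher. Groups of 3 limit an exact permutation test of single values to a p of 0.1 at best.

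For the later steps the libraries are described by their overlap. From P75 to 6mo, 5 genes (Clec7a, Spp1, Axl, Trem2 and Lyz2) were higher in all libraries of the later age and Tyrobp was lower in all, as were 32.1% and 30.9% of all genes. From 6 to 24 months 9 genes, all but Axl, were higher without overlap (background 23.2%). Between P75 and 24mo 10 of 10 were (background 29.4%), with ratios of the means from 1.18 for Axl to 18.8 for Cst7. As the choice of the genes used the libraries of 6 and 24 months, nothing is read from these counts. The 3 comparisons share libraries with each other.

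**Figure D2:**
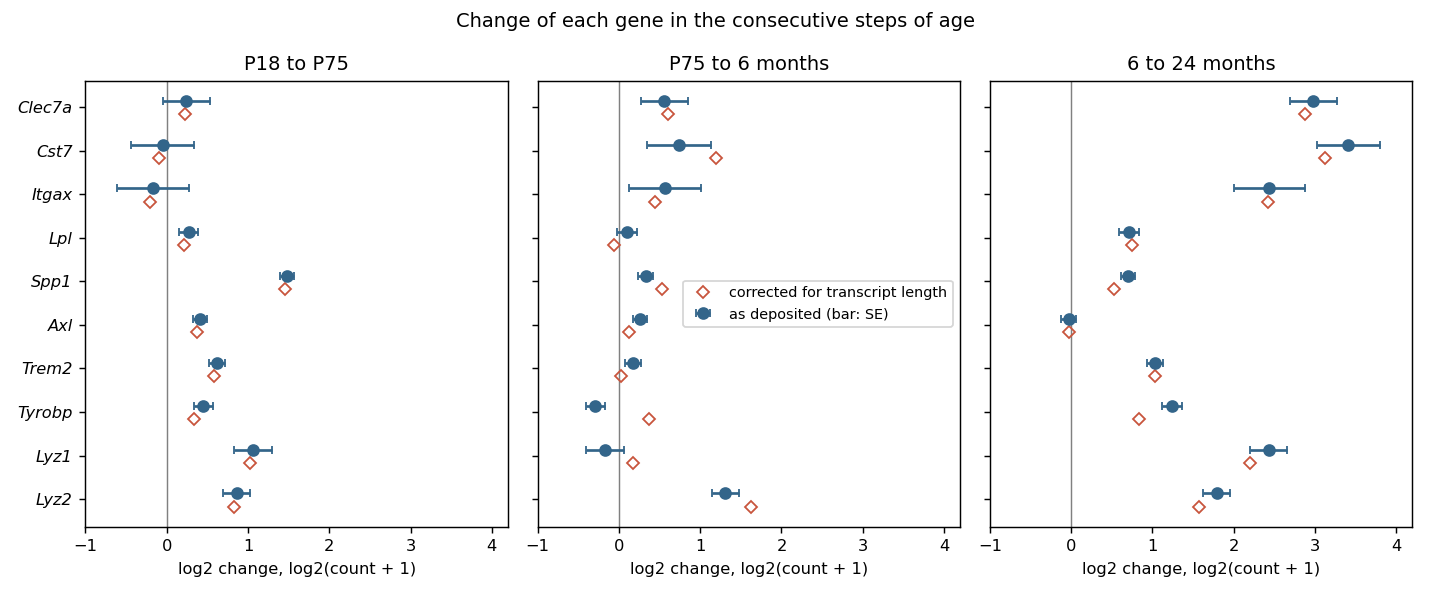
Change of each gene (x axis, log2 of the normalized read count + 1, later minus earlier age) for the 3 consecutive steps of age. Filled points with bars give the limma estimate and its SE, and open diamonds the estimate after removal of the trend with gene length. Spp1 has its largest change in the first step, Cst7, Clec7a, Itgax and Lyz1 in the last, and Tyrobp changes sign with the correction in the middle step, from -0.29 to 0.37.

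A trend with gene length ran through the later comparisons. From P75 to 6mo the median log2 change was -0.74 for the 544 genes with merged exons under 1 kb and 0.12 for the 6515 genes over 4 kb. The step from 6 to 24 months ran the other way, with 0.38 and -0.04, and that from P18 to P75 showed 0.04 in both classes. Tyrobp (564 bases) and Cst7 (986 bases) are under 1 kb, and Lyz1 (1264), Lyz2 (1313) and Spp1 (1648) under 2 kb. Its part in the values of these genes was examined with a correction, chosen after the data had been seen, that removed from each library a smooth curve of its deviations against exon length.

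With the correction the differences from 6 to 24 months were 3.12 for Cst7, 2.88 for Clec7a, 2.42 for Itgax, 2.20 for Lyz1, 1.57 for Lyz2, 1.03 for Trem2, 0.83 for Tyrobp, 0.75 for Lpl, 0.53 for Spp1 and -0.02 for Axl on the log2 scale. The order of the first 5 genes was the same with and without it. In the step from P75 to 6mo they were 1.63 for Lyz2, 1.20 for Cst7, 0.61 for Clec7a, 0.53 for Spp1, 0.44 for Itgax, 0.37 for Tyrobp, 0.17 for Lyz1, 0.12 for Axl, 0.02 for Trem2 and -0.06 for Lpl. At P18 to P75 the rise of Lpl no longer passed the test and the other 6 rises did, with 23.4% of all genes rising. The correction also moved the calls over all genes from 2435 higher and 1852 lower to 1659 and 2154 in the step from 6 to 24 months, and between P75 and 24mo from 4219 and 3813 to 3494 and 4916.

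**Figure D3:**
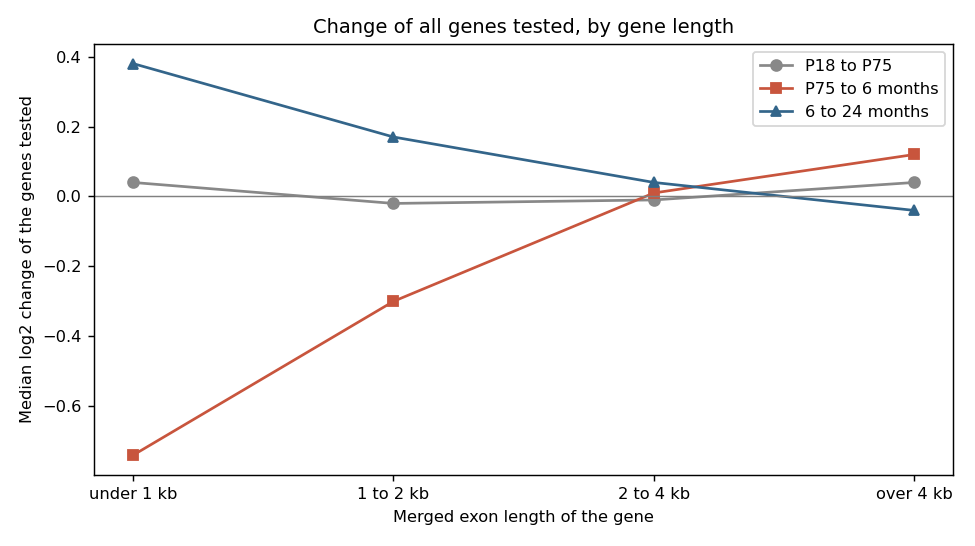
Median log2 change (y axis) of all genes tested in 4 classes of merged exon length (x axis), with 1 line per step of age. The line for P75 to 6mo runs from -0.74 to 0.12, that for 6 to 24 months from 0.38 to -0.04, and that for P18 to P75 stays near 0.

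Divided by the merged exon length in kb, the levels can be set side by side. At 24mo the order was Tyrobp (2834 ± 295 normalized read counts per kb), Spp1 (2290 ± 52.0), Lyz2 (677 ± 153), Axl (215 ± 10.2), Lyz1 (209 ± 30.7), Trem2 (157 ± 18.1), Lpl (125 ± 11.1), Cst7 (92.4 ± 1.44), Clec7a (67.0 ± 9.92) and Itgax (9.23 ± 3.0; SD, n = 3 each). The libraries of Axl and Lyz1 overlapped, as did those of Lyz1 and Trem2, and the other neighbours in this order did not. At 6mo Spp1 (1413 ± 116) stood above Tyrobp (1200 ± 134) with overlapping libraries. Axl (218 ± 4.79) and Lyz2 (192 ± 22.7) overlapped at that age too, as did Trem2 (76.7 ± 3.33) and Lpl (76.1 ± 5.95), and Clec7a (8.52 ± 3.78) and Cst7 (7.97 ± 2.39). Cst7 was thus close to Clec7a per kb at 6mo and above it in all libraries at 24mo. Division by length does not remove the trend with gene length between ages, so changes of order between short and longer genes may reflect it. The 6mo level of Cst7 also rests on 27 pooled reads.

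The spread among the 24-month libraries had a common order for some of the genes. Clec7a, Itgax, Trem2, Tyrobp, Lyz1 and Lyz2 were lowest in replicate 1 and highest in replicate 3. Cst7 and Lpl were also highest in replicate 3, and Spp1 was highest in replicate 1. The summed homeostatic microglia markers (12412 to 13858) and pan-myeloid markers (9095 to 11823) were likewise lowest in replicate 1 and highest in replicate 3. This order was not particular to microglia genes. The neuron marker Syt1 (13645, 16051 and 17934 in replicates 1, 2 and 3) and the astrocyte marker Aqp4 (5426, 6920 and 7096) had it too. The myelin gene Mobp ran the other way (174144, 158651 and 139112). The share of all genes with this order was not counted.

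The markers that microglia carry in the healthy brain were summed per library. The members were chosen with their rise known, so a smaller rise of this list follows from the choice and is only described. The 14 homeostatic markers summed to 10328 ± 695 at 6mo and 13078 ± 730 at 24 months (SD, n = 3), 1.27 times higher, without overlap (exact permutation test, two-sided, p = 0.1, the smallest that 3 against 3 can give). Of these 14, 4 rose between 6 and 24 months and 10 did not pass the test. Among the 4 were the lipid receptor Gpr34 (log2 change 0.64) and the secreted protein Olfml3 (0.38), with a median of 0.21 over the list and 0.03 over all genes. P2ry12, the ADP receptor of resting microglia, had 1136 ± 82.4 and 1341 ± 38.3 and did not pass the test, nor did Tmem119 (447 ± 81.6 and 509 ± 11), Cx3cr1 (673 ± 93.5 and 723 ± 61.6) or Csf1r (1321 ± 107 and 1328 ± 168). The 13 pan-myeloid markers tested, shared by microglia and other macrophages, summed to 5930 ± 364 and 10641 ± 1400, 1.79 times higher. Of them 11 rose and 2 did not pass the test. Among those with a mean over 100 at either age, the lysosomal protein Cd68 (1.18), the oxidase subunit Cyba (1.09) and the Fc receptor chain Fcer1g (1.03) rose most. The oxidase subunit Cybb, below that level and named after its values were seen, rose by 1.45.

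Relative to the summed homeostatic markers of the same library, Cst7 was 9.26 times higher at 24 than at 6mo, Clec7a 6.28 times, Itgax 5.0 times, Lyz1 4.04 times and Lyz2 2.77 times. Tyrobp (1.85 times), Trem2 (1.61 times), Lpl (1.29 times) and Spp1 (1.28 times) differed less, and Axl was lower, at 0.775 times. These ratios use the libraries with which the members were chosen, so nothing is read from their size. The fraction also held RNA of other cell types, so a ratio to microglia markers does not show that microglia carried a gene. In level, Spp1 amounted to 10.9% of the homeostatic sum at P18, 23.0% at P75, 22.6% at 6mo and 28.9% at 24mo. Trem2 amounted to 3.59%, 4.2%, 3.69% and 5.92%, and Axl to 11.3%, 11.4%, 10.7% and 8.27%. Thus Trem2 and Axl kept a similar ratio to these markers over the first 3 ages, while Spp1 moved at the first step.

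**Figure D4:**
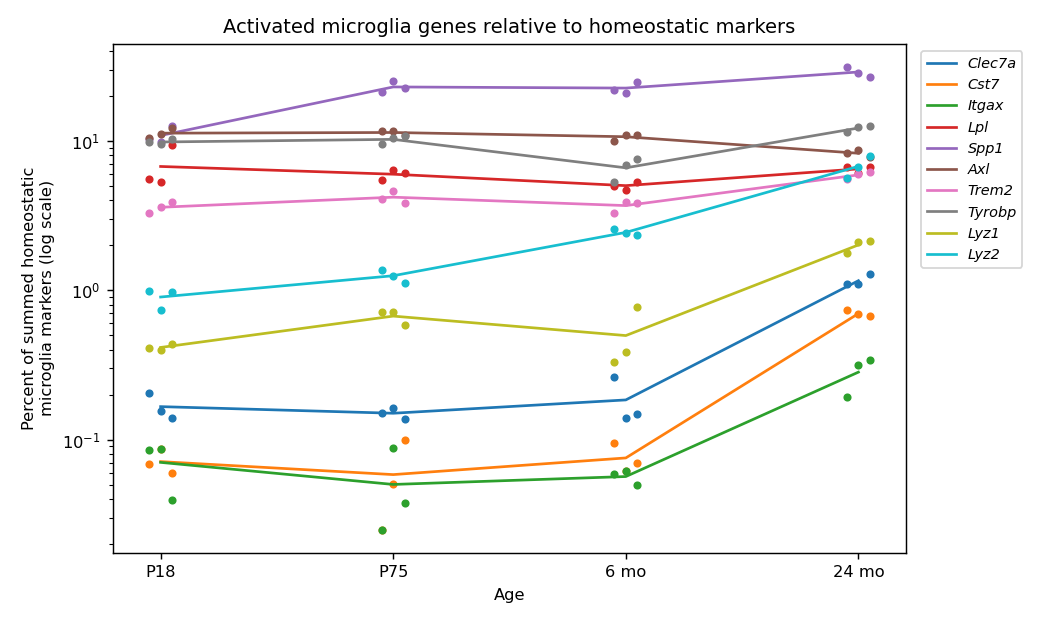
Level of each gene as a percentage of the summed homeostatic microglia markers of the same library (y axis, log scale) at each age (x axis), with points for libraries and lines through the means of 3. Cst7, Clec7a, Itgax, Lyz1 and Lyz2 are higher at 24mo than at 6mo, from 2.77 to 9.26 times, and Axl falls from 10.7% to 8.27%.

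Markers of other cell types that could carry these genes are given beside them, and their part in the result was not tested. Border macrophage markers, 8 genes such as Mrc1, summed to 401 ± 7.04 at 6mo and 498 ± 44.0 at 24mo, 1.24 times higher, and 2 of 8 rose (Stab1, log2 change 0.42, and Cd163, named after its value was seen, 0.77). Blood monocyte and neutrophil markers, 10 genes of which 2 were tested, summed to 25.3 to 42.2 at 6mo and 65.7 to 332 at 24mo, against 85.2 to 208 at P75 and 44.1 to 149 at P18. Most of it was the neutrophil pair S100a8 and S100a9, both of which rose from 6 to 24 months (log2 changes 2.90 and 2.46). Their libraries varied widely, with S100a8 at 50.5, 114 and 13.9 in replicates 1, 2 and 3 of 24mo. The monocyte marker Ly6c2 was at 0 in the 3 libraries of 6mo and in replicate 3 of 24mo, and Elane, a marker of neutrophil precursors, had at most 4.32. Lymphocyte markers (9 genes, 1 tested) summed to 133 to 162 and 147 to 190, most of it Cd4, which had 125 ± 18.6 and 123 ± 21.7. The other 8 markers, all low, summed to 15.1 to 22.4 at 6mo and 48.7 to 54.6 at 24mo, against means of 25.5 ± 4.04 at P75 and 18.3 ± 4.83 at P18 (SD, n = 3). All 8 had a higher mean at 24mo than at 6mo, 5 of them without overlap, such as the chemokine Ccl5 (5.46 ± 2.87 and 16.9 ± 0.832) and the T cell receptor chain Cd3e (0.813 ± 1.41 and 4.64 ± 1.45; SD, n = 3).

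Sums of astrocyte (0.969 times), endothelial (0.893 times), red blood cell (0.878 times) and oligodendrocyte and myelin markers (0.953 times) overlapped between 6 and 24 months. The red blood cell sum was Alas2 alone, since the 4 globin genes of that list were at 0 in every library. Neuron markers (0.965 times) and oligodendrocyte precursor markers (0.833 times) were slightly lower without overlap. Within these lists Gfap, the filament protein of reactive astrocytes, rose (log2 change 0.65), and Cnp (-0.72), Opalin (-0.60) and the precursor receptor Gpr17 (-1.05) fell.

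**Figure D5:**
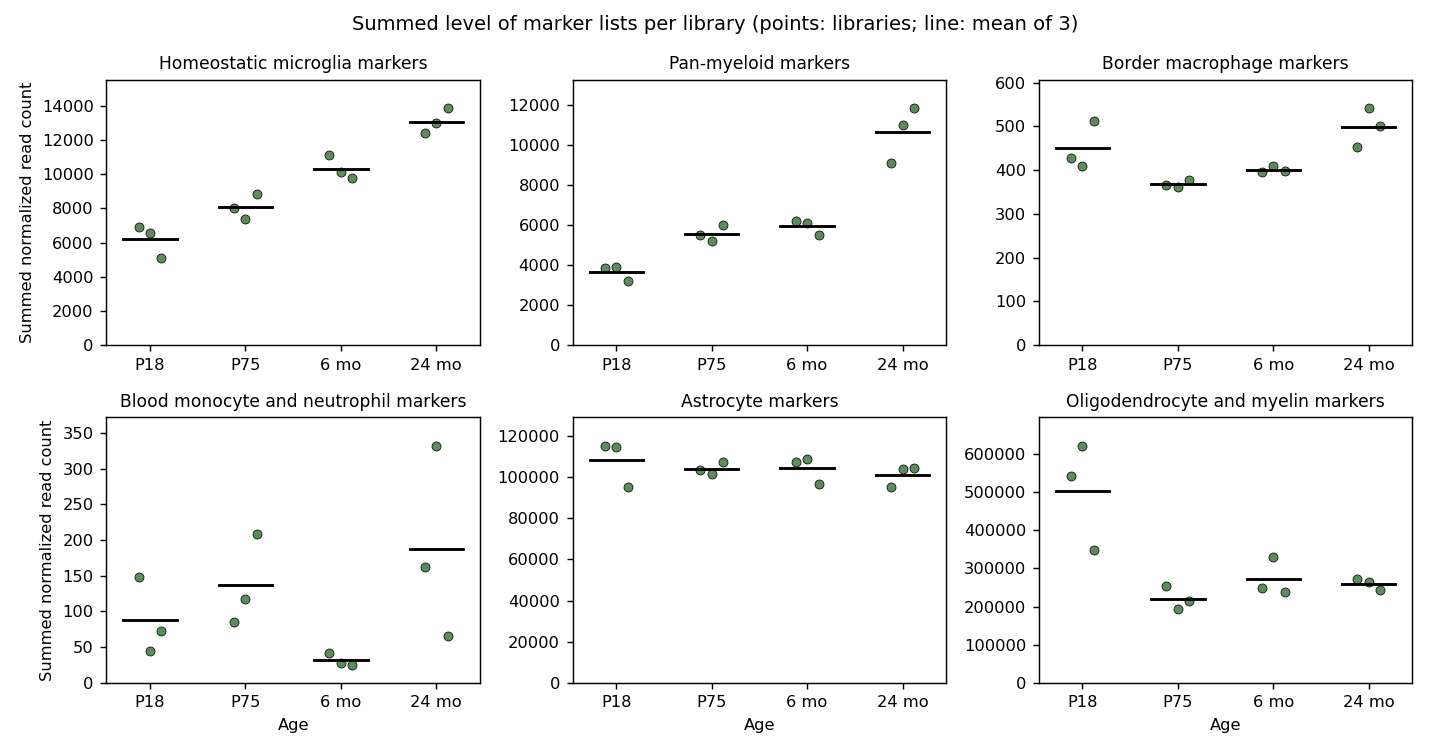
Summed normalized read count of 6 marker lists per library (y axis, from 0) at each age (x axis), with points for libraries and a line at the mean of 3. Homeostatic microglia markers rise in steps to 13078 at 24mo, pan-myeloid markers go from 5930 to 10641 between the last 2 ages, blood markers vary widely between libraries, and astrocyte markers stay level.

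Other genes of the same pathways came from lists written by hand with earlier results of these data known. They were compared in the step from 6 to 24 months, in which 16.6% of all genes rose and 12.7% fell. Because of how the lists were chosen, their counts and p-values are a description and give no independent support. Among 35 other genes reported for disease-associated microglia 20 rose and 1 fell. Among those with a mean over 100 at either age, Lgals3, which encodes the lectin galectin-3 (log2 change 2.07, from 32.8 ± 11.2 to 137 ± 29.5), the surface glycoprotein Cd52 (1.75) and the lysosomal glycoprotein Gpnmb (1.22) rose most, and the hypoxia factor Hif1a fell by 0.34. Of the lower genes, named after their values were seen, the inhibitory receptor Lilrb4 rose by 2.50 and the chemokines Ccl4 by 2.42 and Ccl3 by 1.99. Apoe, the lipid carrier, had 39922 ± 3290 and 44766 ± 5690 with overlapping libraries and did not pass the test. For the signaling partners of Trem2 and Clec7a, 6 of 21 rose, among them the adaptor Lat2 (0.71), the phosphatase Ptpn6 (0.54) and the exchange factor Vav1 (0.44). The remaining 15 did not pass the test.

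Partners of Axl, Spp1 and Itgax rose in 5 of 13 cases, and 8 did not pass the test. Itgb2, the chain that pairs with Itgax, went from 109 ± 16.3 to 204 ± 37.1 (log2 change 0.89; adjusted p = 0.0031, limma with Benjamini-Hochberg adjustment). The Axl ligands Gas6 (0.46, from 2230 ± 113 to 3062 ± 92.8) and Pros1 (0.43) rose, while Axl itself did not differ beyond its spread. The related receptors Mertk and Tyro3, named after their values were seen, had 342 ± 50.7 and 399 ± 11.8, and 3611 ± 106 and 3942 ± 344, and did not pass the test. Among 12 genes of lipid handling around Lpl, 1 rose, the apolipoprotein Apoc1 (0.86). Of 12 cystatins and cysteine cathepsins, targets and relatives of Cst7, 10 rose, led by the proteases Ctss (0.95), Ctsh (0.80) and Ctsz (0.60). The lists share genes, so their counts are not independent. Ctss is also a pan-myeloid marker, and Ctsb, Ctsl and Ctsz are also among the other disease-associated genes.

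These counts rested in part on single libraries and on length. The homeostatic count was 2 in place of 4 without replicate 2 or 3 of 6mo or replicate 2 or 3 of 24mo. For the Trem2 and Clec7a partners it was 2 without replicate 2 of 6mo and 3 without replicate 3 of 24mo, and for the Axl, Spp1 and Itgax partners 3 without replicate 2 of either age. The cathepsin count was 6 without replicate 3 of 24mo, the lipid handling count 2 without replicate 3 of P18, the border macrophage count 1 without replicate 1 or 3 of 6mo or replicate 2 of 24mo and 4 without replicate 3 of P18, and that of the astrocytes 0 without replicate 3 of 6mo. After the length correction, with 11.6% of all genes rising, 4 homeostatic, 11 pan-myeloid, 20 other disease-associated, 5 Trem2 and Clec7a partner, 6 Axl, Spp1 and Itgax partner, 4 lipid handling and 8 cathepsin and cystatin genes rose.

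In the earlier step from P18 to P75, where 25.9% of all genes rose and 22.9% fell, 15 of the 35 other disease-associated genes rose and 8 fell. The 8 became 3 when the libraries were scaled to the same total, 4 in the libraries of P18 and P75 alone, 3 without replicate 1 of P18 or replicate 1 of P75, 4 without replicate 2 of P18, and 5 without replicate 2 of P75, 6mo or 24mo or with the replicate block. Pan-myeloid markers rose in 9 of 13 cases with 1 lower, homeostatic markers in 6 of 14 with 8 that did not pass the test, and cystatins and cathepsins in 9 of 12 with 1 lower. Itgb2 rose from 41.2 ± 1.91 to 72.4 ± 10.8 and Gas6 from 1299 ± 142 to 2026 ± 137, whereas Itgax, at 4.53 ± 2.19 and 3.94 ± 2.31, overlapped. Of the partners of Trem2 and Clec7a 6 rose and 9 fell, the latter becoming 2 when the libraries were scaled to the same total and 5 without replicate 1 of P18, and the former 3 without replicate 3 of P75.

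Across the 12 libraries, which share the 4 ages and therefore the large steps between them, the genes most like each member were found by Pearson's r of log2(normalized read count + 1) over the same 14634 genes. Clec7a and Cst7 were each other's closest match (r = 0.971), followed for both by Nxph2, a neurexophilin, and Osmr, the oncostatin M receptor. Itgax was closest to Clec7a (0.95), Plau and Cst7. Trem2 was closest to B2m (0.991), Ptprc (0.99) and H2-K1 (0.976), the shared and heavy chains of MHC class I and the leukocyte phosphatase CD45. The nearest genes of Lyz2 were C1qa (0.991), Serpina3n and Ctsh, and those of Lpl were C4b (0.97), Ier3ip1 and Ankzf1. Lyz1 was closest to Tpcn2 (0.977), Tm2d1 and Tyrobp, and Tyrobp to Lyz1 (0.963), Tlr2 and Tspo, so that the lysozyme copies were not among each other's nearest 3. Spp1 matched Kdsr, Prss23 and Coch (0.995 each), and Axl matched Lrig1 (0.994), Rif1 and Timp3, a pattern of steps that ends at 6mo.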

How the data were processed

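RNA of purified myelin was sequenced in 12 libraries, 3 at each of 4 ages, and the labels gave each library its age and replicate number. The authors aligned reads to mm9 with TopHat (the sources differ on its version), counted them on genes with HTSeq (0.5.4p1 per the submitters' processing notes) and scaled the counts with size factors from DESeq, which gave the deposited signal, a normalized read count. Reads that match several genes, strand and gene length were handled upstream and could not be varied here. The values were whole multiples of the value of 1 read, and 100% came out whole, so reads were recovered for edgeR and DESeq2. Depth was 20299052 to 27214385 reads on genes. Intervals on pooled reads (exact, 95%) cover counting error only.

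Ages were compared with limma 3.58.1 (trend, empirical Bayes, R 4.3.3) after log2(normalized read count + 1), in the 14634 genes whose mean over all libraries reached 10, with age as the sole term of a single model of all 12 libraries, at a Benjamini-Hochberg false discovery rate of 0.1. The count 1 is a pseudocount, so changes of low genes are understated. edgeR 4.0.16 and DESeq2 1.42.0, other pseudocounts, filters, scalings, a replicate block, single libraries left out, the libraries of 2 ages alone and, both chosen after the data had been seen, a length correction and those libraries with the filter on their own mean were alternatives. The method was tested on simulated data. Sums and plots were made in Python 3.11.15 (scipy 1.17.1, numpy 2.4.6, pandas 2.3.3, matplotlib 3.10.9). Symbols were found in GENCODE vM1 for 96.3% of the table, and exon lengths for 97.5% of the genes tested.

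The members and lists were chosen with earlier results of these data known. Named genes are the members, their 3 nearest genes by Pearson's r, defining cell markers, and from each list up to 3 genes with the largest rise and 3 with the largest fall from 6 to 24 months among those called, with a mean over 100 at 1 of both ages and no overlap. Single values of some list genes are not reported here. The sources tie no replicate number to a shared animal or batch. The correlation of deviations from the age means between same-numbered libraries was -0.151 to -0.0264 for P18 and P75, 0.101 to 0.187 for P75 and 6 months, -0.213 to -0.0603 for 6 and 24 months and -0.0899 to -0.0356 for P75 and 24 months, so only the pair P75 and 6 months exceeded 0.1 throughout.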

Additional observations from a re-analysis of the deposited data

How the results depend on the processing

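Of 980 member changes recomputed under other settings, 933 kept direction and side of the threshold, 21 no longer passed it, 11 newly passed and 15 changed sign. The 980 include fits without a library of an age outside the comparison, where the log2 change stays the same by construction. They also include a stricter threshold on the same fit. The 933 is therefore no measure of how robust the changes are. With a filter for a mean over 100, 5 in place of 9 members were called between 6 and 24 months and 6 in place of 10 between P75 and 24 months, because 4 members were then not tested. Calls that use the libraries of 6 or 24 months describe the members and test nothing. The change of Cst7 from P18 to P75, -0.05 as first fitted, was 0.02 with a pseudocount of 10, 0.06 scaled to the same total, 0.08 with edgeR and 0.10 with DESeq2, and with single libraries left out it ranged from -0.51 to 0.35. That of Itgax ranged from -0.56 to 0.14, that of Lyz1 from P75 to 6 months from -0.50 to 0.01, and that of Axl from 6 to 24 months from -0.06 to 0.01. With the length correction Tyrobp turned from -0.29 to 0.37 from P75 to 6 months, past the threshold both times, Lpl (-0.06) and Lyz1 (0.17) changed sign without passing it, and Axl was no longer called from P75 to 6 months (0.12) or from P75 to 24 months (0.09). Lpl was the 1 member call lost from P18 to P75 in the libraries of those ages alone. Members called with 1 library left out numbered 6 to 7 from P18 to P75, 3 to 6 from P75 to 6 months, 9 from 6 to 24 months and 9 to 10 from P75 to 24 months. A block for the replicate number gave 7, 4, 9 and 10 called members in the 4 comparisons, as without it, and this block changed no other call of a member. Depth limits Clec7a, Cst7 and Itgax below 24 months, where 2 to 36 reads per library set their levels.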
